A study of Mus musculus with 6 samples.

Results

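The interferon response genes described here were the protein-coding genes whose symbols matched a fixed set of names: the receptor subunits (Ifnar, Ifngr), the STAT and IRF transcription factors, the IFIT, OAS, GBP, Ifi and Isg families, and single genes such as Mx1, Rsad2, Usp18 and Zbp1. The names matched 60 of 22239 genes in the table, without use of any measured value. Bulk RNA sequencing covered 3 sorted lung epithelial populations, in duplicate, from mice 8 weeks old. Bronchioalveolar stem cells (BASC) were sorted for both the CCSP-mCherry and the SPC-YFP reporter, which mark Scgb1a1 and Sftpc expression. Alveolar type 2 (AT2) cells, the surfactant-making cells of the alveolus, were sorted as SPC-YFP+, and Club cells, which line the bronchioles and secrete, as CCSP-mCherry+. All came from lung homogenates depleted of CD31 and CD45, which mark endothelial and blood cells, and no infection or interferon treatment is named for any group. Nothing in the labels ties the 2 samples of a group to separate animals, and p-values therefore reflect the spread of these samples alone, which may be technical.

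Interferons are secreted proteins that warn cells of infection. Type I interferons bind the receptor made by Ifnar1 and Ifnar2, and interferon gamma binds that of Ifngr1 and Ifngr2. Signals from the type I receptor run through the kinases JAK1 and TYK2 to ISGF3, a complex that holds STAT2 and IRF9. ISGF3 binds a DNA element, the ISRE, at the promoters of antiviral genes such as Ifit1 and the Oas genes, while the interferon gamma signal acts through another element, the GAS. Many of these genes also have a basal level in uninfected tissue, which differs between cell types.

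Values are normalised read counts, that is, gene counts which the authors scaled per sample. Column totals lay between 12733137 and 14090464, and the reads behind them, estimated from the spacing of low values, between 10122640 (BASC replicate 1) and 18205636 (AT2 replicate 1). An expected count of 3 reads, the limit that a value of 0 allows, was worth between 2.29 and 4.02, which covers counting error only. AT2 markers summed to between 1048079 and 1211629 in BASC and AT2 and to 82828 and 103735 in Club cells. Club markers summed to 1157902 and 1165492 in the Club libraries, 103050 and 125520 in those of BASC, and 20802 and 23815 in those of AT2, so the markers followed the sort labels. AT2 replicate 1 stood apart in mesenchymal markers, with a sum of 240 against 13 to 104 in the other libraries.

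**Figure D1:**
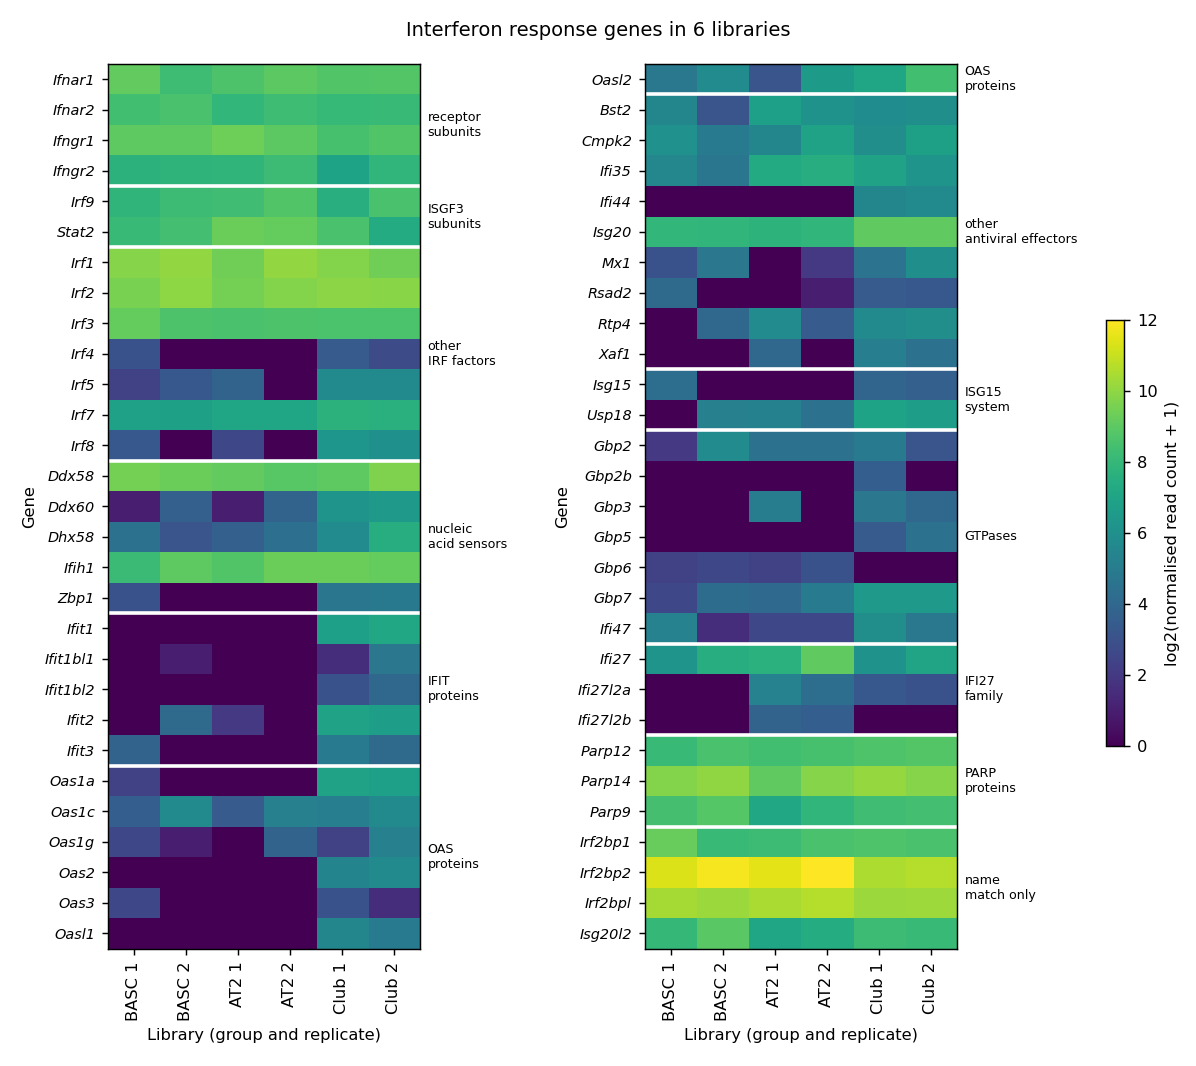
Level of interferon response genes, as log2(normalised read count + 1), in the 6 libraries (columns), with genes (rows) grouped by role. Receptor, most IRF and PARP genes have a similar colour across a row, whereas Ifit1, Oas2, Oasl1 and Ifi44 are dark (listed at 0) in BASC and AT2 and lighter in both Club libraries.

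The receptor subunits were read in all 3 populations and none was called, whereas several of the antiviral genes that this signal switches on were read in Club cells and listed at 0 in AT2 cells and BASC. Of the 60 members, 54 had a value of at least 10 in at least 2 samples and were tested. The antiviral genes listed at 0 in AT2 cells and BASC that were tested met this filter through the Club libraries alone. Their order was thus fixed by the filter. Between AT2 and Club cells, 10 members were lower in AT2 (limma adjusted p under 0.05; 9.71% of all 17721 genes tested were lower) and 2 were higher (8.42% of all genes), while 42 were not called. These shares came to 18.5% and 3.70% of the members tested. Their median log2 fold change was -0.94 against -0.10 for all genes, and the same with genes listed at 0 set to the bound that 3 reads allow. Against Club cells, BASC had 6 members lower (11.1% of those tested, 5.42% of all genes) and 1 higher (1.85%, against 5.77% of all genes), with a median of -1.23, or -1.20 at the bound, against -0.10.

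Between BASC and AT2, limma called none of the 54 members, where 0.553% of all genes were higher in BASC and 0.079% lower. At an unadjusted p under 0.05, 3 members were higher in BASC and 4 were lower, where 7.09% and 6.09% of all genes were. The median was 0.00, as for all genes. The comparisons share samples: each population enters 2 of the 3.

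The counts against Club cells carry a condition of the filter. Of the 54 members, 8 passed it through the 2 Club libraries alone (14.8%, against 3.31% of all genes tested). They were Gbp5, Ifi44, Ifit1, Irf8, Oas1a, Oas2, Oasl1 and Zbp1. Such genes had to be lower elsewhere, so they add no support to the counts and medians above. Of the 10 members lower in AT2, 7 were of this kind, as were 5 of the 6 lower in BASC. Without such genes, 3 of 46 members were lower in AT2 (6.52%, against 7.55% of all genes) and 1 was lower in BASC (2.17%, against 3.64%). The medians over these 46 were -0.56 for AT2 minus Club and -0.69 for BASC minus Club, against -0.06 for all genes in both. Ifit2 and Isg20 were among the others in AT2, and Isg20 was the other in BASC. Some of the 46, among them Ifit2, Ifit3 and Isg15, still needed a Club library to pass. Ifit2, for example, had 17 in BASC replicate 2 and at most 3 in the other BASC and AT2 libraries. The shares and medians of the 46 are therefore not free of the filter either. Without Club replicate 1 or Club replicate 2, 45 members could be tested, and none was called lower in AT2 or in BASC. The 7 called members that passed through Club cells alone were among those not testable. Without AT2 replicate 2, 6 members were lower in AT2 and none was higher, and 1 was higher without AT2 replicate 1 or Club replicate 2. The 1 call higher in BASC was lost without BASC replicate 1, BASC replicate 2 or Club replicate 1. In the same way, 2 members passed the filter through the AT2 libraries alone and had to be higher there. Ifi27l2b, called higher in AT2 than in Club cells, was of this kind, so it adds no support to that count.

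**Figure D2:**
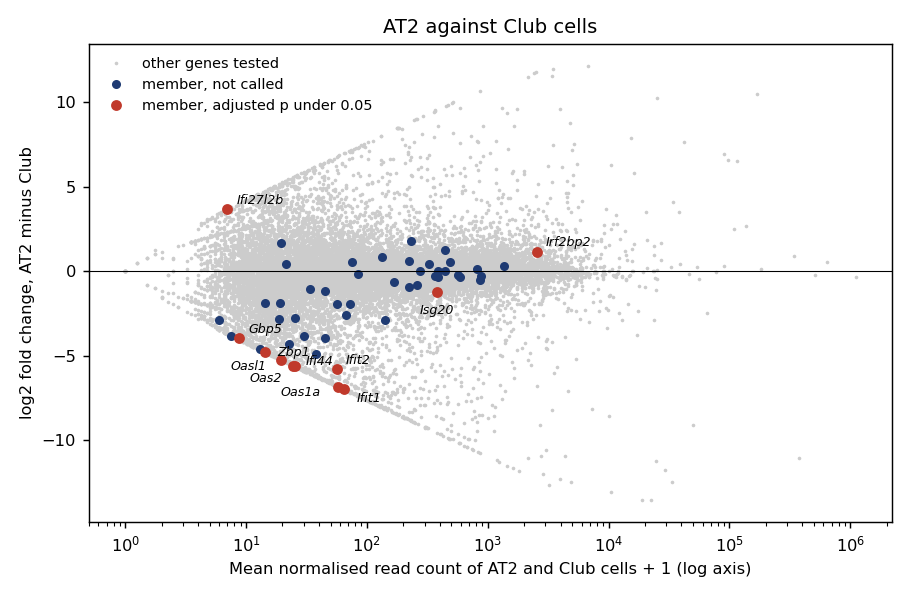
Log2 fold change of AT2 minus Club (y axis) against the mean normalised read count of both populations + 1 (x axis, logarithmic) for genes tested (grey), with members that were not called in dark blue and called members in red and named. Ifit1, Oas1a, Ifi44, Oas2, Oasl1, Zbp1 and Gbp5 lie on the lower edge of the cloud, where AT2 values are at 0, and Irf2bp2 and Ifi27l2b lie above the zero line.

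The 4 receptor genes were read in every library, between 125 and 655 counts. Ifnar1, a subunit of the type I receptor, had 560 and 304 normalised counts in the BASC libraries, 396 and 507 in those of AT2, and 433 and 438 in those of Club cells. Its partner Ifnar2 had 334 and 369, 249 and 304, and 266 and 269 in the same order. The groups overlapped for Ifnar1, and Ifnar2 was somewhat higher in BASC within an interval that includes no difference (log2 fold change against AT2 0.35, 95% interval -0.25 to 0.95).

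Ifngr1, the ligand-binding subunit for interferon gamma, had 512 and 527 in the BASC libraries, 655 and 506 in those of AT2, and 364 and 433 in those of Club cells. Both Club values lay below the others, but the difference was not called (AT2 minus Club 0.54 ± 0.22, SE, n = 2 per group, limma adjusted p = 0.159). Ifngr2, the signalling subunit, had 210 and 223, 229 and 294, and 125 and 236. For the type I receptor, the 95% interval of the AT2 minus Club log2 difference ran from -0.71 to 0.80 for Ifnar1 and from -0.56 to 0.64 for Ifnar2, which leaves room for differences within these bounds. No receptor gene was called by limma in any of the 3 comparisons, and 1 difference (Ifngr1, AT2 against Club) had an unadjusted p under 0.05.

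ISGF3 is the complex that carries the type I signal to DNA. Stat2 had 277 and 335 in the BASC libraries, 632 and 582 in those of AT2, and 377 and 165 in those of Club cells. Both AT2 values of Stat2 lay above all others, without a call (AT2 minus Club 1.28 ± 0.39, limma adjusted p = 0.0648; BASC minus AT2 -0.99 ± 0.39, adjusted p = 0.341). Irf9, the DNA-binding subunit, had 228 and 296, 317 and 423, and 186 and 381, with overlap between AT2 and Club cells. Irf9 shares 123 bases on the same strand with Rnf31, so a few of its reads could belong to that gene.

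The remaining IRF genes fell into a broadly read set and a sparse set. Irf1, an early target of interferon gamma, ranged from 665 to 1076 over the 6 samples, Irf2, which competes with it at DNA, from 729 to 985, and Irf3, the factor that first switches on interferon genes, from 380 to 569. None of these 3 was called, and per kilobase of exon Irf1 was the highest of the IRF factors in every population (216 in AT2, 192 in Club cells and 247 in BASC). Irf7, which amplifies interferon production, had 117 and 113 in the BASC libraries, 134 and 131 in those of AT2, and 211 and 194 in those of Club cells. Its Club values stood above all others without a call (AT2 minus Club -0.61 ± 0.36, limma adjusted p = 0.319).

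Irf8, a factor of myeloid and dendritic cells, had 78 and 65 in the Club libraries, 9 and 0 in those of BASC, and 5 and 0 in those of AT2. Irf5, which acts downstream of Toll-like receptors, had 50 and 53 in the Club libraries, 4 and 9 in those of BASC, and 13 and 0 in those of AT2. Both genes stood above all other samples in Club cells, yet neither was called (AT2 against Club, limma adjusted p = 0.0673 for Irf8 and 0.122 for Irf5), and Irf5 overlaps Tnpo3 on the opposite strand. Irf8 passed the filter through the Club libraries alone, so its order was fixed by the filter. Irf5 also needed a Club library to pass. Irf4, a lymphocyte factor, had 10 and 6 in Club cells, 7 and 0 in BASC and 0 in AT2, and was not tested. Of 27 markers of blood cells, 8 were in the table. Without Lyz2, an AT2 gene as well, the other 7 summed to 407 and 433 in the BASC libraries, 297 and 442 in those of AT2, and 179 and 227 in those of Club cells. The Club libraries thus had the lowest sums of immune markers beside the highest Irf8 and Irf5. In them Cd68, a macrophage marker, had 114 and 132, and Coro1a, a general marker of blood cells, 0 and 6.

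**Figure D3:**
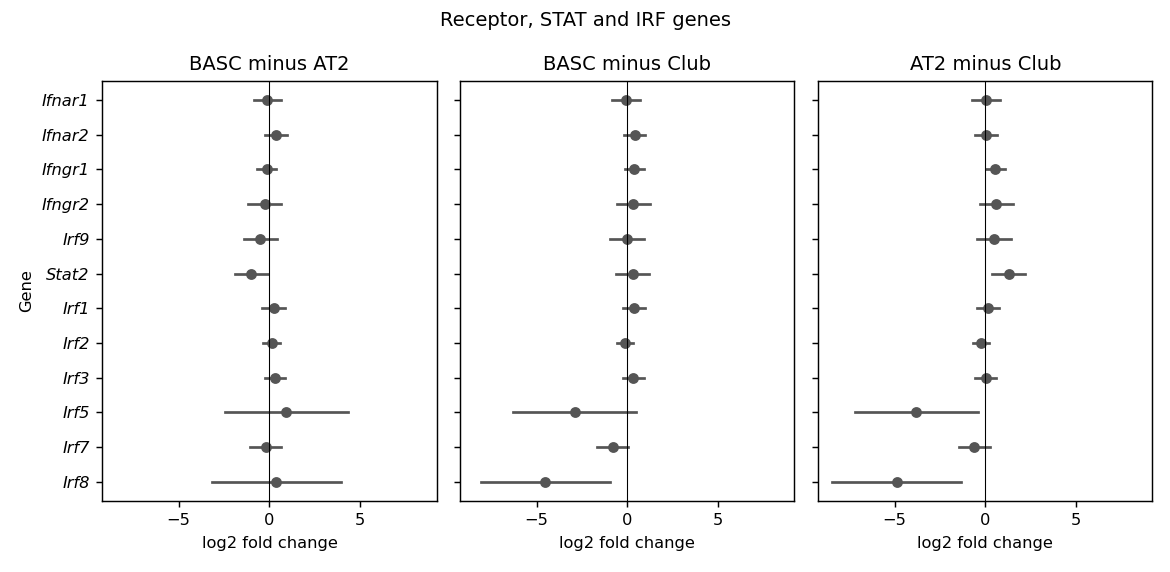
Log2 fold changes (points) with 95% intervals of the moderated fit (lines) for receptor, ISGF3 and IRF genes in the 3 comparisons. None of the genes drawn passed an adjusted p of 0.05, and the widest intervals belong to the sparse genes Irf5 and Irf8.

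Sensors of viral nucleic acid also fell into broadly read and sparse genes. Ddx58, which encodes the RNA sensor RIG-I, ranged from 467 to 815 over the 6 samples, and Ifih1, which encodes the related sensor MDA5, from 289 to 641, with no call for either. Dhx58, a regulator of both, had 55 and 178 in Club cells against 21 and 8 in BASC and 12 and 20 in AT2, and was not called (AT2 against Club, limma adjusted p = 0.128). Ddx60, a helicase linked to RIG-I, had 73 and 90 in the Club libraries, 1 and 12 in those of BASC, and 1 and 13 in those of AT2 (adjusted p = 0.105). Zbp1, a sensor that can start necroptosis, had 25 and 28 in Club cells, 7 and 0 in BASC, with both AT2 libraries listed at 0. It was called between AT2 and Club cells, at least 9.64-fold higher in Club cells (limma adjusted p = 0.0440), and kept the call in 6 of 12 alternatives. The call was lost without either AT2 library, without a filter, after quantile normalization, without the trend and with the replicate block (adjusted p up to 0.132). In all 3 of the sparse sensors both Club values exceeded the other 4, which was true of 20.5% of all genes tested. Zbp1 passed the filter through the Club libraries alone, so for it this order was fixed by the filter.

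IFIT proteins bind viral RNA and block its translation, and their genes are among the most inducible by type I interferon. Ifit1 (GRCm38 chromosome 19, 34640871 to 34650009) had 110 and 143 in the Club libraries and was listed at 0 in all 4 BASC and AT2 libraries. That makes it at least 46.0-fold higher in Club than in AT2 cells (limma adjusted p = 0.00407) and at least 37.4-fold higher than in BASC (adjusted p = 0.00639). Both calls held in each of the 13 alternatives in which Ifit1 could be tested.

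Ifit2 had 118 and 100 in Club cells, 3 and 0 in AT2, and 0 and 17 in BASC. It was called against AT2 (limma adjusted p = 0.0452) and not against BASC (adjusted p = 0.116), and the former call was kept in 6 of 15 alternatives. It was lost without either AT2 or either Club library, with a pseudocount of 0.5, without a filter, after quantile normalization, without the trend and with the replicate block (adjusted p up to 0.261). Ifit3 had 31 and 17 in Club cells, 13 and 0 in BASC and 0 in AT2, without a call (AT2 against Club, adjusted p = 0.0730). The sparse copies Ifit1bl1 and Ifit1bl2 had 2 and 26, and 7 and 15, in Club cells and at most 1 elsewhere, and were not tested. All 5 IFIT genes lie within 99.3 kb on chromosome 19. They summed to 268 and 301 in the Club libraries, 13 and 18 in those of BASC, and 3 and 0 in those of AT2, although reads can be shared between Ifit1 and its copies.

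OAS proteins sense double-stranded RNA and make a messenger that starts the breakdown of RNA. Oas1a (chromosome 5, 120896256 to 120907521) had 118 and 110 in Club cells, 4 and 0 in BASC, and 0 in both AT2 libraries. It was at least 41.5-fold higher in Club than in AT2 cells (limma adjusted p = 0.00818) and was also called against BASC (adjusted p = 0.0260), the latter not without BASC replicate 2. Oas2 (chromosome 5, 120730333 to 120749853) had 42 and 52 in Club cells and 0 in the other 4 libraries, at least 17.1-fold above AT2 (adjusted p = 0.0102) and at least 13.9-fold above BASC (adjusted p = 0.0157).

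Oasl1, a relative without synthetase activity that restrains Irf7 translation, had 44 and 30 in Club cells and 0 elsewhere. It was at least 13.5-fold above AT2 (limma adjusted p = 0.0136) and at least 10.9-fold above BASC (adjusted p = 0.0203), calls that were each lost without either library of the population at 0. Its neighbour Oasl2 had values in every library, 131 and 330 in the Club libraries, 27 and 55 in those of BASC, and 8 and 92 in those of AT2 (AT2 against Club, adjusted p = 0.142). Within the 177 kb that hold Oas1a, Oas1c, Oas1g, Oas2 and Oas3, only Oas1a and Oas2 were called. Oas1c had between 10 and 52 in every library, with overlapping groups. Oas1g, a close paralog of Oas1a, had 4 and 36 in the Club libraries, 5 and 1 in those of BASC, and 0 and 13 in those of AT2, and neither gene was called. For AT2 minus Club, the log2 fold change was -1.05 for Oas1c (95% interval -3.66 to 1.56) and -1.86 for Oas1g (-5.81 to 2.09). Both intervals are wide and include no difference. All 6 OAS genes tested had fold changes below 0 against Club cells in AT2 and BASC. For Oas1a, Oas2 and Oasl1 the filter fixed this order. Oas3 reached at most 7 and was not tested.

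Promoter sequence was looked at for the genes that differed, in the 250 bases before each RefSeq start (GRCm38.p6), which 46 of the 60 members have in the table used. The ISRE core was searched as GAAA, 2 bases of any kind and GAAA, and the GAS core as TTCNNNGAA, on both strands, with overlapping matches counted. An ISRE core stood in 19 of the 46 (41.3%) against 3.46% of all genes with such a window, and a GAS core in 11 (23.9%) against 8.13%. Of the members higher in Club than in AT2 cells with a window, 3 of 7 had an ISRE core (Ifit1, Oas1a and Gbp5), and of the members called in no comparison 12 of 33 (36.4%). A GAS core stood in 4 of the 7 (57.1%) and in 7 of the 33 (21.2%). The 3 promoters with an ISRE core are shown because they belong to genes read in Club cells alone or nearly so. That of Oas1g was added after its values were seen, because it holds the same motif arrangement as Oas1a and was not called. Capitals mark ISRE core matches, and each sequence runs 5′ to 3′ on the strand of the gene.
Ifit1, chr19:34640639-34640888, plus strand: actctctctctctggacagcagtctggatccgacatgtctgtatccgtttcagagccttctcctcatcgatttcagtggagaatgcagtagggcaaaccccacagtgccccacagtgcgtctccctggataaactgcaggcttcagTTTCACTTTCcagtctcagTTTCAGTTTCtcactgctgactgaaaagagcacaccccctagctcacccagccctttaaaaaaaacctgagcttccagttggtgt
Oas1a, chr5:120907526-120907775, minus strand: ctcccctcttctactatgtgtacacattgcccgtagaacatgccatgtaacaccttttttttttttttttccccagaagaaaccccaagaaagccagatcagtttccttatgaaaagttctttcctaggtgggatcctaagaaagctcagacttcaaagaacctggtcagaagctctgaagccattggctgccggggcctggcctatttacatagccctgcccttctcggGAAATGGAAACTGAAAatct
Oas1g, chr5:120887614-120887863, minus strand: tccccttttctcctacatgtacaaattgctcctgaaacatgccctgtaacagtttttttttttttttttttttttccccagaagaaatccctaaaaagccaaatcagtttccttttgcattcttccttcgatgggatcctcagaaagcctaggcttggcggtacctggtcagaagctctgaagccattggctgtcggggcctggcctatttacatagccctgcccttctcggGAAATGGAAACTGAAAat
Gbp5, chr3:142496684-142496933, plus strand: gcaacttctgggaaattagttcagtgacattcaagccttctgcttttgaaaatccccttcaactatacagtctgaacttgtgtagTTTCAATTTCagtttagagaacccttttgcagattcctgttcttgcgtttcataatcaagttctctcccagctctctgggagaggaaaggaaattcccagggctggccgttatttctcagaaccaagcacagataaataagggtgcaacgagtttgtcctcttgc

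Ifit1 carries 2 matches on the opposite strand that begin 104 and 85 bases before the start. In Oas1a 2 overlapping matches begin 20 and 14 bases before it, and in Oas1g 18 and 12 bases before it. Gbp5 carries 1 match, 165 bases before the start. A match describes letters only and was not tested for binding.

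Of the other antiviral effectors, Ifi44 and Isg20 differed. Ifi44 (chromosome 3, 151730922 to 151749960), a cytoplasmic protein gene strongly induced by interferon, had 45 and 52 in Club cells and 0 in the other 4 libraries. It was at least 17.6-fold above AT2 (limma adjusted p = 0.00977) and at least 14.3-fold above BASC (adjusted p = 0.0152). Isg20 (chromosome 7, 78913424 to 78920396), an RNA exonuclease gene, was well read in all libraries, with 528 and 545 in the Club libraries, 244 and 237 in those of BASC, and 215 and 237 in those of AT2. It was 2.37-fold higher in Club than in AT2 cells (AT2 minus Club -1.25 ± 0.24, adjusted p = 0.0125) and 2.23-fold higher than in BASC (BASC minus Club -1.15 ± 0.24, adjusted p = 0.0250). This is the called effector whose difference does not rest on values of 0. Its call against AT2 was lost without either Club library, and that against BASC without either library of BASC or Club cells.

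The antiviral GTPase gene Mx1 had 23 and 61 in the Club libraries, 7 and 26 in those of BASC, and 0 and 3 in those of AT2 (AT2 against Club, limma adjusted p = 0.0605). Rsad2, which encodes viperin, reached 17 in BASC replicate 1 and 10 and 9 in Club cells, with at most 1 in the other samples. Its neighbour Cmpk2 ranged from 30 to 121 without order between the groups. Rtp4 had 52 and 59 in Club cells, 55 and 10 in AT2, and 0 and 15 in BASC. Xaf1, a proapoptotic gene, had 34 and 22 in Club cells, 15 and 0 in AT2, and 0 in BASC (BASC against Club, adjusted p = 0.0885). None of these 5 was called in any comparison.

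Bst2 and Ifi35 went another way, with their lowest values in BASC. Bst2, which encodes the virus-tethering protein tetherin, had 44 and 8 in the BASC libraries, 109 and 70 in those of AT2, and 57 and 62 in those of Club cells. Ifi35 had 46 and 25 in the BASC libraries, 163 and 176 in those of AT2, and 120 and 73 in those of Club cells, so both BASC values lay below all others (BASC minus AT2 -2.29 ± 0.58, limma adjusted p = 0.152). Neither gene was called.

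Isg15, a ubiquitin-like modifier that is among the strongest interferon targets, was close to the detection limit. It had 14 and 12 in Club cells, 19 and 0 in BASC, and 0 in AT2 (AT2 against Club, limma adjusted p = 0.144). Usp18, which removes ISG15 and dampens the type I receptor, had 124 and 101 in the Club libraries, 0 and 36 in those of BASC, and 38 and 21 in those of AT2 (adjusted p = 0.490). Both Club values of Usp18 exceeded the other 4, while those of Isg15 did not.

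The interferon gamma-inducible GTPases were sparse. Gbp5 (chromosome 3, 142496900 to 142522344), which promotes inflammasome assembly, had 10 and 21 in Club cells and 0 in the other libraries. It was called against AT2 (at least 5.64-fold, limma adjusted p = 0.0392) but not against BASC (adjusted p = 0.0540), and the call was kept in 5 of 11 alternatives. It was lost without either AT2 library, with a pseudocount of 10, without a filter, after quantile normalization and with the replicate block (adjusted p up to 0.124). Gbp7 had 85 and 90 in Club cells, 16 and 30 in AT2, and 5 and 18 in BASC (BASC against Club, adjusted p = 0.0944).

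Gbp2 ranged from 3 to 54, with overlapping groups. Gbp3 had 26 and 15 in Club cells, 32 and 0 in AT2, and 0 in BASC, at least 6.06-fold higher in Club cells than in BASC without a call (adjusted p = 0.164, limma). Ifi47 had 60 and 27 in Club cells, 39 and 2 in BASC, and 5 in both AT2 libraries (AT2 against Club, adjusted p = 0.243, limma). Gbp6 had 4 to 7 in BASC and AT2 and was listed at 0 in Club cells, and Gbp2b had 11 in Club replicate 1 alone; neither was tested. Gbp genes are close paralogs, so reads can be split between them.

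The IFI27 family, small mitochondrial membrane proteins induced by type I interferon, had its highest values in AT2. Ifi27l2b had 13 and 11 in AT2 and 0 in the other 4 libraries, and was called against Club cells (at least 4.29-fold, limma adjusted p = 0.0443), a call kept in 6 of 12 alternatives. It was lost without either Club library, with a pseudocount of 10, without a filter, after quantile normalization and with the replicate block (adjusted p up to 0.534). Ifi27l2a had 39 and 19 in AT2, 9 and 7 in Club cells, and 0 in BASC (BASC against AT2, adjusted p = 0.125). Ifi27 had 205 and 529 in AT2, 74 and 178 in BASC, and 68 and 128 in Club cells (AT2 minus Club 1.81 ± 0.64, adjusted p = 0.103). AT2 values thus exceeded all others in the 3 genes, which lie within 23.0 kb on chromosome 12 and resemble each other in sequence. Ifi27l2a and Ifi27l2b passed the filter through the AT2 libraries alone, so for them this order was fixed by the filter.

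The PARP genes had at least 146 counts in each library. Parp14, a macrodomain protein gene, had between 539 and 1094, and Parp12, which acts against RNA viruses, between 284 and 442, and neither was called. Parp9 had 348 and 457 in the BASC libraries, 146 and 237 in those of AT2, and 320 and 340 in those of Club cells (BASC minus AT2 1.10 ± 0.32, limma adjusted p = 0.209). The antisense gene Gm15564 overlaps Parp9 by 5853 bases and had between 1340 and 3574 counts. The strand setting of the counting is unknown here, so the Parp9 values may hold reads of that gene.

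A further 4 members match by name but are not known as interferon-stimulated genes: Irf2bp1, Irf2bp2 and Irf2bpl, whose proteins are named for binding IRF2, and Isg20l2, a ribosome biogenesis exonuclease gene. Irf2bp2 (chromosome 8, 126588296 to 126593986) had 2663 and 3615 in the BASC libraries, 2910 and 4161 in those of AT2, and 1488 and 1621 in those of Club cells. It was 2.27-fold higher in AT2 than in Club cells (log2 fold change 1.16 ± 0.21, limma adjusted p = 0.00989) and about as high in BASC (BASC minus Club 0.998 ± 0.213, adjusted p = 0.0271). The first call was lost without AT2 replicate 2, and the second without either BASC library or Club replicate 1. It supplied the 1 member higher in BASC than in Club cells. Irf2bp1, Irf2bpl and Isg20l2 were not called.

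**Figure D4:**
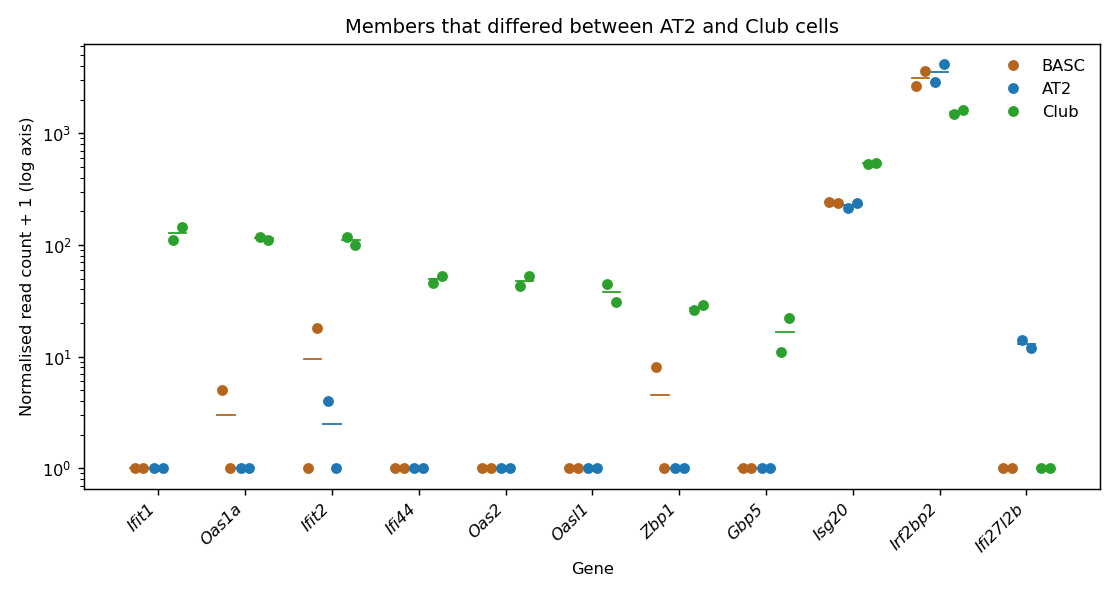
Normalised read count + 1 (y axis, logarithmic) of members called between AT2 and Club cells, with 1 point per library, a short line at each group mean, and groups by colour. For Ifit1, Ifi44, Oas2, Oasl1 and Gbp5 all BASC and AT2 points sit on the floor of the axis, and for Isg20 and Irf2bp2 every library has at least 215 counts.

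In 21 of the 54 members tested (38.9%) both Club values lay above all 4 other values, which was true of 20.5% of all genes tested. The 8 members that passed the filter through Club cells alone had to be among them. Without such genes it was 13 of 46 members (28.3%) and 17.8% of all genes. Some of the 13, such as Ifit2, still needed a Club library to pass. Both Club values lay below all others in 2 members, against 15.4% of all genes. The Club libraries also had fewer genes listed at 0 in general. Of all 22239 genes, 12.04% and 12.7% were at 0 in the Club libraries, against 19.1% to 20.9% in the other 4, although the Club libraries were not the deepest. Of the 60 members, 2 and 3 were at 0 in the Club libraries, 15 and 19 in BASC, and 17 and 19 in AT2.

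**Figure D5:**
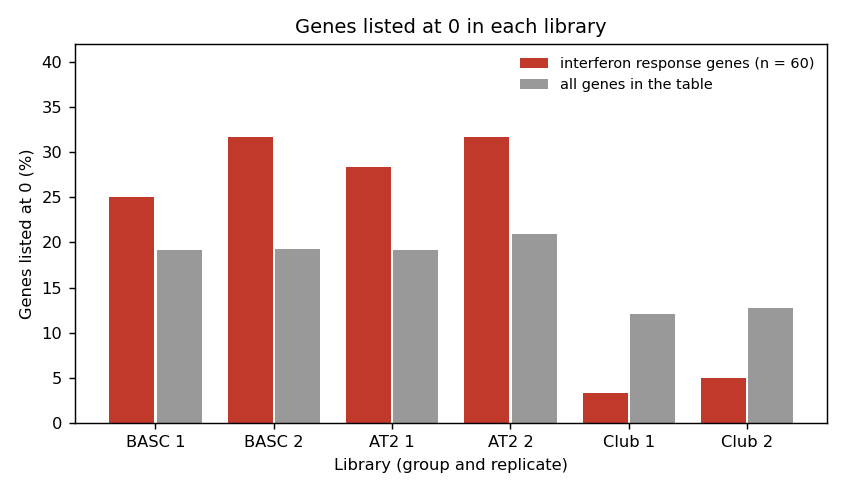
Share of genes listed at 0 (y axis, percent) in each library (x axis), for the 60 interferon response genes (red) and all genes in the table (grey). The red bars exceed the grey ones in the 4 BASC and AT2 libraries, at 25% to 31.7%, and fall below them in the Club libraries, at 3.33% and 5%.

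Markers of ciliated cells, the neighbours of Club cells in the bronchiole, moved with the same libraries. All 10 ciliated markers of the list were lower in AT2 than in Club cells and 7 of 10 were lower in BASC, and the list summed to 12602 and 12291 in the Club libraries, 3130 and 3084 in those of BASC, and 2509 and 2788 in those of AT2. Without Tubb4b and Tppp3, which other cells also express, the sums were 8431 and 7926 for Club cells, 566 and 298 for BASC, and 286 and 78 for AT2. Foxj1, the defining factor of ciliated cells, had 795 and 825 in the Club libraries, 115 and 100 in those of BASC, and 96 and 40 in those of AT2. Of the 10 markers, none was at 0 in Club cells, 1 and 0 were in BASC, and 2 and 4 in AT2. The part of ciliated cell RNA in the Club values of the interferon response genes was not tested. In bulk samples, fewer cells of a type and less RNA per cell cannot be told apart. Of the 10 endothelial markers, 7 were in the table, and they summed to 5586 and 5956 in Club cells against 1042 to 1441 in the others. Kdr, a VEGF receptor gene, made up 5510 and 5892 of the Club sums, while Pecam1, which encodes CD31, had 3 and 6 in Club cells and between 7 and 27 in the others. Vwf, which encodes von Willebrand factor, had 63 and 32 in Club cells, 15 and 2 in BASC, and 0 in AT2, and was at least 17.3-fold higher in Club than in AT2 cells (limma adjusted p = 0.0221). Esam, Egfl7 and Tek went the other way. Esam had 2 and 3 in Club cells and between 419 and 1087 in the others (AT2 over Club 410-fold, limma adjusted p = 3.65e-05). It made up 1087 and 964 of the AT2 sums. Egfl7 had 2 and 4 in Club cells against 15 to 52, and Tek 6 and 12 against 23 to 33. Tie1 reached at most 8. The part of the endothelial markers in the result was not tested.

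Other genes of the pathway, from lists that do not overlap the members, were described by the same test. Of 21 interferon genes, 2 were in the table: Ifnk, a keratinocyte interferon, had between 16 and 108 in all libraries, and Ifnab was above 0 in BASC replicate 1 alone, at 9. The receptor for interferon lambda, the type III interferon of epithelia, was not called either. Its specific subunit Ifnlr1 ranged from 241 to 290 and the shared subunit Il10rb from 292 to 495. Of 16 JAK kinases, further STATs and inhibitors, 3 were higher in AT2 than in Club cells (8.42% of all genes were), 13 were not called, and limma called none in the other comparisons. At an unadjusted p under 0.05, BASC had 4 of the 16 lower against AT2 (6.09% of all genes) and 3 higher against Club cells (11.3% of all genes). Jak2, a kinase of the interferon gamma receptor, had 1672 and 1974 in AT2, 1011 and 1105 in BASC, and 757 and 825 in Club cells (AT2 over Club 2.30-fold, limma adjusted p = 0.00247). The inhibitors Pias1 and Socs3 were 2.08-fold higher in AT2 than in Club cells (adjusted p = 0.00849 and 0.0339), and the call of Socs3 was lost without BASC replicate 1, BASC replicate 2, AT2 replicate 1, AT2 replicate 2 or Club replicate 1. Jak1 ranged from 1563 to 1973 and was not called.

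Of 17 further sensors and adaptors tested, 3 were lower in AT2 than in Club cells (9.71% of all genes were). Between BASC and AT2 limma called none of them, with 2 higher and 1 lower at an unadjusted p under 0.05 (7.09% and 6.09% of all genes). Ikbke, an interferon-inducible kinase that acts on IRF3, had 317 and 214 in the Club libraries, 17 and 67 in those of BASC, and 28 and 11 in those of AT2 (13.6-fold over AT2, limma adjusted p = 0.0241). Unc93b1, which carries Toll-like receptors to endosomes, had 747 and 680 in the Club libraries, 386 and 368 in those of BASC, and 335 and 349 in those of AT2. It was called against AT2 (adjusted p = 0.0120) and was the 1 gene of this list called against BASC (adjusted p = 0.0303). The calls against AT2 were lost without either Club library for both genes and without AT2 replicate 2 for Ikbke, and the call of Unc93b1 against BASC without either library of BASC or Club cells.

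Of 47 other interferon-stimulated genes tested, 9 were lower in AT2 than in Club cells (19.1%, against 9.71% of all genes) and 2 were higher (4.26%, against 8.42%). Against Club cells BASC had 4 lower (8.51%, against 5.42% of all genes) and 1 higher (2.13%, against 5.77%). The median log2 fold change was -0.57 for AT2 minus Club and -0.76 for BASC minus Club, against -0.10 for all genes in both. Of the 47, 2 passed the filter through Club cells alone, among them Ifitm1, and had to be lower elsewhere. Without such genes, 8 of 45 were lower in AT2 (17.8%, against 7.55% of all genes). In BASC 3 of the 45 were lower (6.67%, against 3.64%). The medians over the 45 were -0.57 for AT2 minus Club and -0.67 for BASC minus Club, against -0.06 for all genes in both. Some of the 45 still needed a Club library to pass. Between BASC and AT2 limma called none, with 3 higher and 4 lower at an unadjusted p under 0.05 (7.09% and 6.09% of all genes). The IFITM proteins stop virus fusion at membranes. Ifitm1 had 211 and 161 in Club cells, 1 and 0 in AT2, and 0 in BASC, at least 55.0-fold above BASC (adjusted p = 0.00528; against AT2, adjusted p = 0.00449). Ifitm3 had 426 and 368 in the Club libraries, 46 and 52 in those of BASC, and 0 and 9 in those of AT2 (88.2-fold over AT2, adjusted p = 0.00596), and was not called against BASC (adjusted p = 0.156). The neighbour Ifitm2 had values in all libraries, from 21 to 186, and was not called.

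More moderate differences came from Epsti1, Sp110 and Sp100, which were 6.40-fold, 5.74-fold and 5.31-fold higher in Club than in AT2 cells (limma adjusted p = 0.0159, 0.0236 and 0.0327). Samd9l, a restriction factor gene, had 1734 and 1246 in the Club libraries, 969 and 643 in those of BASC, and 434 and 649 in those of AT2 (2.75-fold over AT2, adjusted p = 0.0145). Lgals3bp was 2.70-fold higher in Club than in AT2 cells (adjusted p = 0.00728) and 3.44-fold higher than in BASC (adjusted p = 0.00477). Lgals9, which encodes galectin-9, went the other way, with 216 and 163 in the Club libraries, 521 and 638 in those of BASC, and 580 and 781 in those of AT2 (AT2 over Club 3.59-fold, adjusted p = 0.00378; BASC over Club 3.06-fold, adjusted p = 0.0105). Phf11d and Cd274 were also lower in BASC than in Club cells (adjusted p = 0.0326 and 0.0332), the latter listed at 0 in BASC at 36 and 17 in Club cells. The calls of Epsti1, Sp100 and Sp110 were lost without either Club library or AT2 replicate 2, and those of Sp100 and Sp110 also without AT2 replicate 1. That of Samd9l was lost without AT2 replicate 1 or Club replicate 1, and that of Lgals3bp against AT2 without Club replicate 2. Against BASC, Lgals9 lost its call without either BASC library, and Cd274 and Phf11d without either library of BASC or Club cells.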

How the data were processed

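RNA of 6 samples of sorted mouse lung epithelial cells, 2 per population, was sequenced in bulk after library preparation with a stranded low-input total RNA kit, per the labels' protocols. The tools were FastQC, STAR 2.4.0a for alignment and featureCounts 1.4.5-p1 (Subread) for counting, and the build mm10 (GRCm38), per the submitters' processing notes. The deposited signal is a normalised read count, scaled by the authors with 1 factor per sample and rounded, which was read from the values. How the factors were derived, whether counting used strand, and which annotation release was used is not given in the sources used here. Genes with a maximum under 7 have no row in the table, and 1 read was worth 0.764 to 1.34 units, so whole reads could not be recovered and no count model was run.

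Values were tested with limma 3.58.1 in R 4.3.3 on log2(value + 1), with all 6 samples in 1 fit, a trend in the prior variance, and Benjamini-Hochberg adjustment over the 17721 genes that reached 10 in 2 or more samples. An adjusted p under 0.05, 2-sided, was a call. Fold changes of means use the deposited values, and a fold against a group at 0 was computed against 3 reads, averaged over the group's libraries, as a lower bound. Exon lengths came from GENCODE M21 and promoters from RefSeq (GRCm38.p6). The script was tested on simulated data. Alternatives were other pseudocounts, filters and scalings, no trend, 4-sample fits, a replicate block, and leaving out each sample.

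The members and lists were chosen with earlier results of these data known. Named with values were the called members, the receptor, STAT and IRF genes, the highest members of each family, and up to 8 called genes per comparison of each further list. A few genes are counted but not reported here by name. The other members were named afterwards, and their grouping by role was made after values were seen. Promoters shown are those of called members with an ISRE core, and that of Oas1g, added after its values were seen. No promoter entry was matched for 14 members, among them Dhx58, Gbp6, Ifi27, Ifi27l2a, Ifi27l2b, Mx1, Oas2, Parp14, Parp9, Rtp4, Usp18 and Zbp1.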

Additional observations from a re-analysis of the deposited data

How the results depend on the processing

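No call of a named gene changed direction under any of the 15 alternatives in which it could be tested. Between BASC and AT2, 2 members (Ifi27l2a and Ifi27l2b) were lower in BASC without a trend in the prior variance. Members higher in BASC than in Club cells numbered 0 without the trend, and 0 to 1 when each sample was left out in turn. Members lower in BASC than in Club cells numbered 10 with a pseudocount of 10, 3 with a filter of at least 50 in at least 2 samples, and 0 to 7 with each sample left out. Members higher in AT2 than in Club cells numbered 1 without a filter, 1 after quantile normalization and 1 without the trend, and 0 to 2 with each sample left out. Members lower in AT2 than in Club cells numbered 6 without a filter, 6 with the filter of at least 50, and 0 to 12 with each sample left out. Under the filter of at least 50, 38 members were tested, and without a Club sample 45, so fewer genes could be called by construction; the cause of the other changes was not tested. Quantile normalization moved the median log2 fold change of all genes from -0.10 to 0.03 for AT2 minus Club and from -0.10 to 0.01 for BASC minus Club. With the replicate number as a block, 2 members were higher and 9 lower in AT2 than in Club cells, 1 higher and 6 lower in BASC than in Club cells, and limma called none between BASC and AT2. Against Club cells, 8 of the 12 calls in AT2 were shared with the fit without the block: Gbp5, Ifi27l2b, Ifit2 and Zbp1 were lost, and Ifi27, Irf8 and Mx1 were gained. Without the trend, further calls lost included those of Irf2bp2 in both comparisons, Jak2, Pias1, Socs3, Ikbke and Samd9l in AT2, Unc93b1 in both, and Isg20, Lgals9 and Phf11d in BASC, all against Club cells. The block also ended the calls of Sp100 in AT2 and Cd274 in BASC, and a pseudocount of 10 or no filter that of Cd274. The labels do not say that a number marks a shared animal or day, and deviations of same-numbered samples correlated at 0.0060 to 0.0118. With 1 sample left in a group, its spread is assumed to be that of the other groups. Depth limits the sparse members: for a gene listed at 0, the expected count could be up to 3 reads.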
